A study of Drosophila melanogaster with 2 samples.

Results

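The genes for small nucleolar RNAs (snoRNAs) and small nuclear RNAs (snRNAs) were examined for binding of the protein sugarbabe (sug). This Drosophila melanogaster transcription factor has zinc fingers and is known for its induction by dietary sugar. The members are the 301 genes that the Ensembl annotation gives the biotype snoRNA (269 genes) or snRNA (32 genes), out of 18164 genes on the 6 main chromosome arms. All genes of these biotypes were taken, whatever their binding, but the class was chosen with earlier results of these data known. Binding was measured by ChIP-seq with an anti-GFP antibody in whole embryos of both sexes collected from 8 to 24 hours, from a transgenic line that stably carries sug with GFP at its C-terminus. There was 1 group with 2 biological replicates, and embryos without the tagged protein were not analysed here. Embryos were taken whole, so cell types are mixed, and a site bound in few cells cannot be told apart from one bound weakly in many. Binding sites were the 9342 summits that the authors kept by their irreproducible discovery rate (IDR) threshold over both replicates. The signal of a summit is the authors' own score, and its median over the IDR set was 424, with a range from 224 to 24384.

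snRNAs are the RNA cores of the spliceosome and of related particles, and snoRNAs guide the chemical modification of ribosomal RNA. In flies snRNA genes have short promoters of their own, in which a proximal sequence element upstream of the start is recognised by a dedicated activating complex. Those of U6, U6atac and 7SK are transcribed by RNA polymerase III and the others by polymerase II. Most fly snoRNAs lie in introns of other genes and are cut out of the host transcript, so their transcription starts at the host promoter.

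The 80 bases upstream of 11 snRNA genes are shown because the promoter element is common to genes with and without a sug summit. The sequence is that of the RefSeq genome of Release 6 (dm6), read 5′ to 3′ along the gene, and ends at the base before the annotated start. Capitals mark the words TTCCCAA, part of the proximal sequence element, and TATAAA, each on either strand.
U1:95Ca (chr3R:23859631-23859710, minus strand): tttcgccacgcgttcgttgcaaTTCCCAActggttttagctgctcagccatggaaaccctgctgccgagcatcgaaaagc
U1:82Eb (chr3R:4948097-4948176, minus strand): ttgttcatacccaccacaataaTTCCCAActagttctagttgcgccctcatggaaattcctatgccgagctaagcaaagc
U2:34ABb (chr2L:13215759-13215838, plus strand): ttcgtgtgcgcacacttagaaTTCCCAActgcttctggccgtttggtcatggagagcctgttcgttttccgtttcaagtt
U2:34ABa (chr2L:13212117-13212196, minus strand): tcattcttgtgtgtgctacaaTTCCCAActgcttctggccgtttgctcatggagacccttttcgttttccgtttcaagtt
U4:39B (chr2L:21215179-21215258, minus strand): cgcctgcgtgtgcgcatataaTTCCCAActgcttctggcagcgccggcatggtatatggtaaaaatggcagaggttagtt
U5:63BC (chr3L:3090721-3090800, plus strand): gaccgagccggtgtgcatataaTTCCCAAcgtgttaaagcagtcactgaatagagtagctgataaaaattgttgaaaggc
U12 (chr3L:16653689-16653768, plus strand): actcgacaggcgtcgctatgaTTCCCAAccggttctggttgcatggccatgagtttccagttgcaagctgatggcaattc
U6:96Aa (chr3R:24556008-24556087, plus strand): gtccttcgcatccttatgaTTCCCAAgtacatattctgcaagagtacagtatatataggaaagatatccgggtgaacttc
U6:96Ac (chr3R:24557135-24557214, plus strand): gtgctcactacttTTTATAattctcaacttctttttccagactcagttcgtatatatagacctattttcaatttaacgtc
7SKa (chr3R:7474997-7475076, minus strand): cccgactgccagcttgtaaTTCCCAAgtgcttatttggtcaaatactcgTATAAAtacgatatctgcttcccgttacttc
7SKb (chr3R:23432789-23432868, plus strand): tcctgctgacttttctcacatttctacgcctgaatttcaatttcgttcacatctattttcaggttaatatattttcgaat

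The word TTCCCAA was found within the 300 bases from 250 before to 50 after the start in 26 of 32 snRNA genes (81.2%), against 5.30% of all 18164 gene starts. In these 26 genes it lay on the strand of the gene and began 55 to 61 bases upstream. It was found in 8 of the 10 snRNA genes with a sug summit and in 18 of the 22 without one. The printed genes show this pairing within classes: U1:82Eb and U2:34ABa, without an IDR summit, have the word at the same place as U1:95Ca and U2:34ABb, which have one. The exact word is absent from U6:96Ac and from 7SKb. TATAAA was found in 15 of 32 snRNA windows (46.9%), against 43.9% of all gene starts. It was found in 7 of the 10 snRNA genes with a summit and in 8 of the 22 without.

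Around the summits themselves none of the 6 words searched was found at most sites, and no wider search for a common element was made. The next sequences are 101 bases centred on sug summits at members or host genes, and they are shown because they are the sites that the values given for these genes describe. All are on the plus strand, and capitals mark any of the 6 words searched on either strand. These were TTCCCAA and TATAAA as above, the DNA replication-related element (DRE) core TATCGAT of many fly housekeeping promoters, a run of cytosines (CCCCCC), the GATA factor core GATAAG and the pyrimidine stretch CTTTTC.
7SKa, summit at +225 (chr3R:7474721-7474821, plus strand): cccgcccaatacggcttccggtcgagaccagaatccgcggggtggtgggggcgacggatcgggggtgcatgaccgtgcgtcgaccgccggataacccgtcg
U6:96Ac, summit at -95 (chr3R:24557070-24557170, plus strand): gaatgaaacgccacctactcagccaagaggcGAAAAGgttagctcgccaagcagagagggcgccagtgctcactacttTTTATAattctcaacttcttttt
U4:39B, summit at +23 (chr2L:21215105-21215205, plus strand): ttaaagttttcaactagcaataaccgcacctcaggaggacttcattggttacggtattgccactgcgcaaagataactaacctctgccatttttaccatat
Psi18S-301, summit at -290 (chr3R:20574566-20574666, plus strand): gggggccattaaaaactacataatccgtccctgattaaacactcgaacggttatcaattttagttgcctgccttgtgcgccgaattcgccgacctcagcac
Psi28S-3342, summit at +49 (chrX:5524366-5524466, plus strand): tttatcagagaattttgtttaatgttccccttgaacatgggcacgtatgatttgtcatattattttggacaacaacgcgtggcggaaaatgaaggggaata
Psi18S-996, summit at -940 (chr3L:262843-262943, plus strand): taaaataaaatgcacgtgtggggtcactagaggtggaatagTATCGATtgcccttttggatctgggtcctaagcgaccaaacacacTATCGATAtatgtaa
Uhg2, summit at -78 (chr2L:9895031-9895131, plus strand): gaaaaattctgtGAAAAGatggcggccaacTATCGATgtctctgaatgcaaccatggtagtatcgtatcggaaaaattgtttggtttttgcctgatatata
Uhg3, summit at -43 (chr2L:20647440-20647540, plus strand): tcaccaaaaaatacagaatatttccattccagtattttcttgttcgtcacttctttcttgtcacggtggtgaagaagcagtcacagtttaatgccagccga

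The nearest summits of all members came to 63 distinct sites, and TATCGAT lay within 50 bases of 9 of them (14.3%). In the whole IDR set that share was 4.45%. GATAAG was found at 3 of the 63 (4.76%), against 15.1% of all summits, and CTTTTC at 9 (14.3%), against 8.11%. CCCCCC was found at 2 of 63 (3.17%) and TATAAA at 11 (17.5%), against 6.10% and 15.1% of all summits. TTCCCAA was found at 2 of the 63, against 1.46% of all summits. The summit of Psi18S-996 has TATCGAT at 2 separate places and that of Uhg2 has it once. TATCGAT was also present in the start windows of 30 of 101 protein-coding host genes (29.7%), against 18.2% of all protein-coding genes, and in only 1 of 32 snRNA windows (3.12%). For 67 of the 99 members with such a summit it lay nearer to the start of a non-member gene than to the member. The whole IDR set was not split by distance to a gene start, so no comparison with promoter summits alone was made. These are counts of letters in a window and not of bound factors.

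Of the 301 members, 99 (32.9%) carried an IDR summit at most 1 kb from their transcription start site (TSS), called bound from here on. The same rule gave 34.8% of all genes, 39.3% of protein-coding genes and 19.6% of the 3261 genes of biotype ncRNA. The shares by type were close to each other, with 89 of 269 snoRNA genes (33.1%) and 10 of 32 snRNA genes (31.2%). No test was made of these shares, because members lie in clusters and share summits. The 99 bound members used 81 distinct summits in 73 intervals, 29 of these summits lay within 1 kb of at least 2 members, and 1 summit served up to 4. Just inside the limit were U49:66Db at 970 bp, Psi28S-1192c at 974 bp and Psi18S-525c at 985 bp, and just outside it were Psi28S-2996 at 1026 bp, Psi28S-3405a at 1027 bp and U6:96Aa at 1032 bp.

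Both replicates had a summit at most of these sites. A summit lay within 100 bp of a bound member's strongest summit in replicate 1 for 94 of 99 members, in replicate 2 for 92, and in both for 87. Of the 202 members that were not bound, 58 had a summit in the list called on the pooled reads that fell below the IDR threshold. A summit within 1 kb in each replicate's list was found for 34 of the 202. The same shares over all genes and all IDR summits were not computed, so these counts describe the members only.

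The nearest summit of the 10 bound snRNA genes lay at a median of 141 bp from the start, with a range from 13 to 929 bp. The signals of their strongest summits ran from 266 to 1863, with a median of 462. Bound snoRNA genes had a median distance of 712 bp and a median signal of 552. The nearest summit lay nearer to the TSS of a non-member gene than to the member in 1 of 10 bound snRNA genes. For bound snoRNA genes this held in 66 of 89. TSSs of other members were left out here and wherever a distance to another or the next TSS is given. The summit nearest to U6:96Ab, 428 bp from its start, lay 95 bp from that of U6:96Ac and is not counted in the 1 of 10.

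**Figure D1:**
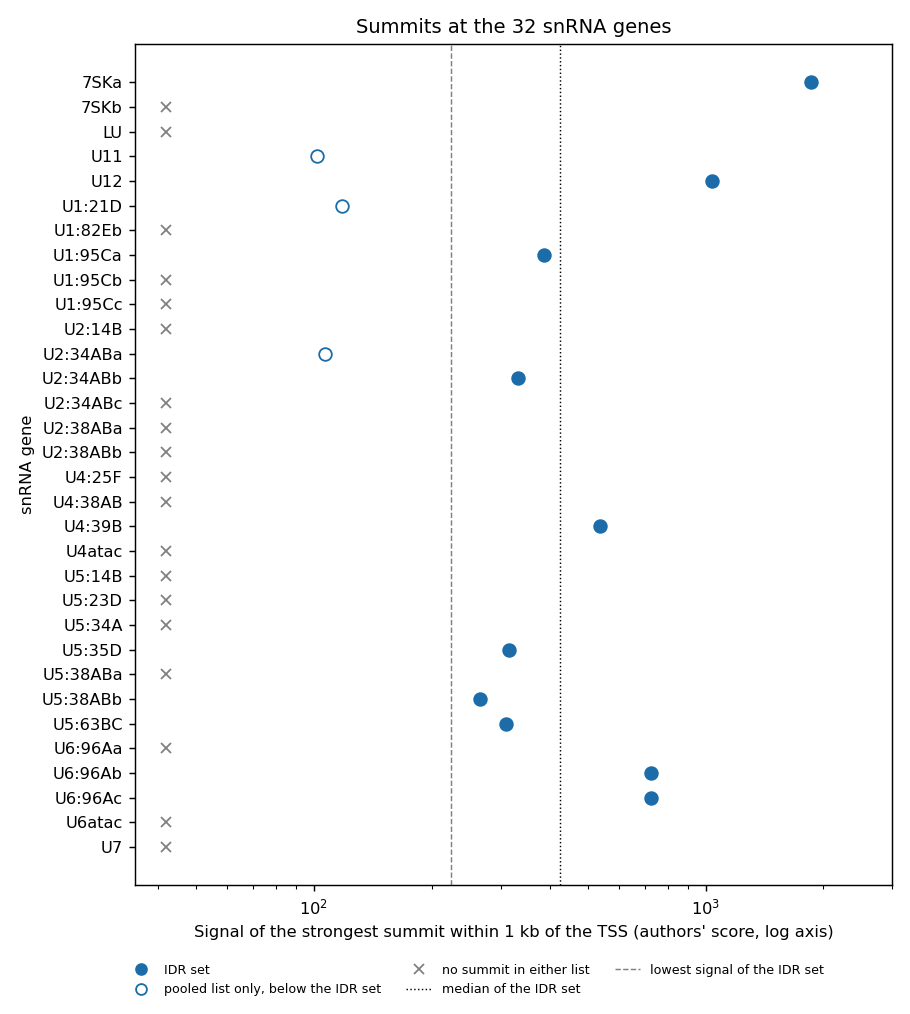
Signal of the strongest sug summit within 1 kb of the TSS of each of the 32 snRNA genes (authors' score in the IDR set or, for open circles, in the pooled list that contains it; logarithmic axis). The 10 filled points range from 266 to 1863, 3 genes have only a summit below the lowest IDR signal of 224, and crosses at the left edge, which carry no value, mark genes with no summit in either list.

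Among the RNAs that recognise splice sites, 1 of 5 U1 genes and 1 of 6 U2 genes were bound, against 34.8% of all genes. U1 pairs with the 5′ splice site, and U1:95Ca had a summit 20 bp upstream of its start with a signal of 387. It was at rank 5182 in replicate 1 and rank 5723 in replicate 2, each a list of 30000 summits. The next TSS of a non-member gene was 30402 bp away from the summit. U2 pairs with the branch point, and U2:34ABb had a summit inside the gene, 187 bp after the start, with a signal of 332 and ranks of 6007 and 7428. The other U1 and U2 genes were not bound. U1:21D had a pooled summit at rank 15315 and U2:34ABa one at rank 16431, both below the IDR set, while U1:82Eb, U1:95Cb, U1:95Cc and 4 other U2 genes had none in the pooled list.

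U4, U5 and U6 enter the spliceosome together as a tri-snRNP, and 1 of 3 U4 genes, 3 of 7 U5 genes and 2 of 3 U6 genes were bound. The share of all genes was 34.8%, and the snRNA classes are too small to be ranked by these counts. U4:39B, in the autophagy gene Atg18b, had a summit 23 bp after its start with a signal of 536 and ranks of 4246 and 3304. U5:63BC had a summit 82 bp after its start with a signal of 310.1, matched at rank 5989 in replicate 1 and not matched in replicate 2. U5:35D had a summit at +516 with a signal of 314, also not matched in replicate 2, and this summit lay 88 bp from the TSS of ND-B17, a gene of mitochondrial complex I. U5:38ABb had the weakest signal of the snRNA genes, 266, at +929 and inside the host gene sick. Thus the U4 site was high in both replicates, and 2 of the 3 U5 sites rest on 1 replicate list and the pooled reads.

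The 3 U6 genes form a cluster on arm 3R, in which U6:96Ab and U6:96Ac share both of their summits. One has a signal of 727, with ranks of 2325 and 2213, and lies 95 bp upstream of U6:96Ac, which is 428 bp after the start of U6:96Ab. The weaker one has a signal of 336 and lies inside U6:96Ac, at +104. U6:96Aa was 1032 bp from the nearer of these and so not bound. The strong summit was 1818 bp from the next TSS outside the cluster, that of a tRNA gene. The cluster therefore holds 1 pair of summits counted for 2 members.

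The minor spliceosome removes a rare class of introns. Its U12 gene had summits at -754 with a signal of 368 and at -955 with a signal of 1038, the latter at ranks 950 and 1825. Both lie in an intron of Baldspot, a fatty acid elongase gene in which U12 is antisense, and the strong one is 4932 bp from the next TSS. U11, U4atac and U6atac, of the same spliceosome, were not bound. U11 was a case in which the lists disagreed: its highest summit was at +808 and rank 8599 in replicate 1, at +960 and rank 3646 in replicate 2, and at +189 and rank 16962 in the pooled list. U7, which guides the processing of histone mRNA ends, and the LU gene were not bound.

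7SK RNA holds the elongation factor P-TEFb in an inactive complex, and 7SKa had the highest signal of the 32 snRNA genes. Its strongest summit lay inside the gene, 225 bp after the start, with a signal of 1863. Its rank was 441 in the IDR set and 465 and 467 in the replicate lists. The next TSS, that of CG1142, was 990 bp away, so this summit also lies within 1 kb of CG1142. A weaker summit at +13 had a signal of 286. The other copy, 7SKb, which lies in CG4374, had no summit in the IDR set or the pooled list. The 7SKa interval covers chr3R:7474444-7475126 and so spans the whole gene. Its neighbour on the same strand, the small Cajal body RNA gene scaRNA:MeU5-C46, had the highest signal of all members, 2104, at a summit 732 bp upstream of it that is 173 bp from the TSS of its host CG1142. The ranks of that site were 673 and 222.

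Several snRNA genes are copies of each other, and a peak list depends on reads that can be placed. Of the 50-base words in the 250 bases on either side of the start, a median of 89.5% occurred once in the genome for bound snRNA genes (range 63.6% to 100%) and 90% for those not bound (43.2% to 100%). For bound and unbound snoRNA genes the median was 100%. The lowest value of an snRNA gene was that of U2:38ABa, 43.2%, and the paired U3 genes U3:54Aa and U3:54Ab had 15.3% each. Bound copies are repeated too. U1:95Ca, U6:96Ab and U6:96Ac each have the same gene sequence as 2 other members, and U2:34ABb the same as 1. The summit of U2:34ABb at +187 and that of U6:96Ac at +104 lie inside such a gene. The sources used here do not give how reads from repeated sequence were placed. Their part in the calls of bound and unbound copies was not tested.

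Members were grouped by where they lie, and their shares stand beside the 34.8% of all genes. Inside a protein-coding gene were 229 members, of which 66 (28.8%) were bound. Inside a non-coding gene only were 45 members, of which 19 (42.2%) were bound. Inside no other gene, called isolated here, were 27 members, of which 14 (51.9%) were bound, among them 7 of 12 snoRNA genes and 7 of 15 snRNA genes. The 95% Wilson intervals of these shares, which cover counting error only, overlap, and no test was made between them. Of those in a coding host, 213 of 229 lay on the strand of the host and 210 in none of its exons.

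**Figure D2:**
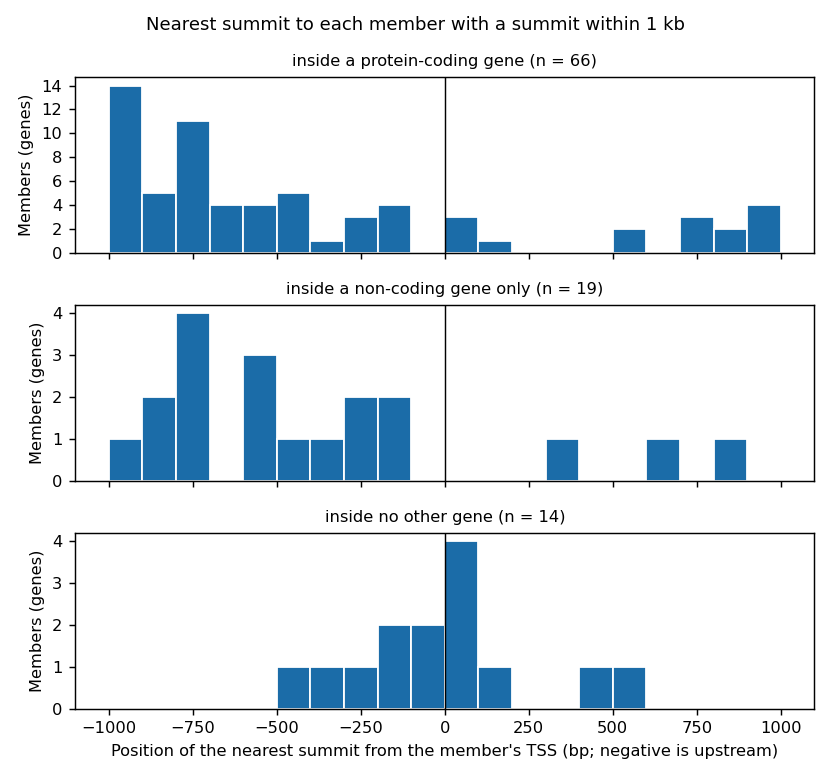
Position of the nearest IDR summit relative to the TSS of each bound member (bp, in bins of 100 bp; negative is upstream), with the number of members on the vertical axis. Members in a coding host have most summits upstream and toward the far end of the window (median distance 734 bp), and isolated members have them close to the start (median distance 121 bp).

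The nearest summit of bound isolated members was at a median of 121 bp from the start and at most 516 bp, and upstream in 7 of 14. Their median strongest signal was 727. For bound members in coding hosts the median distance was 734 bp, the summit was upstream in 51 of 66, and the median signal was 581. The nearest summit was nearer to the TSS of a non-member gene than to the member in 2 of 14 isolated members. For members in coding hosts this held in 49 of 66. TSSs of other members were left out of both counts, and in some isolated members the nearest summit lay nearer to the start of another member. In 9 of the 99 bound members a summit lay inside the member itself. In 21 all summits were over 1 kb from every TSS of a non-member gene, and several of these members share a summit with other members.

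Pseudouridylation guides direct the change of a uridine to pseudouridine, and Psi18S-301, named for a position of 18S rRNA, had a summit 290 bp upstream with a signal of 1167 and ranks of 888 and 1267. The next TSS, that of TFAM, was 2394 bp from that summit. Psi28S-3342 on the X chromosome had a summit inside the gene at +49 with a signal of 497 and ranks of 3089 and 5598, with the next TSS 6916 bp away. Psi18S-176 had one at +27 with a signal of 553 and ranks of 2998 and 3965. Psi28S-1153 and 2 snoRNA genes beside it shared a single summit with a signal of 814, and it lay 368 bp from the TSS of CG13334. The fifth site belongs to another isolated snoRNA gene, which had a summit 120 bp upstream with a signal of 775, whose ranks differed between the replicates, 1219 and 4356. So 5 summits account for the 7 bound isolated snoRNA genes. Guides inside host genes could also have a summit at their own start. Psi28S-2622, in stet, had one inside the gene at +29 with a signal of 715 and ranks of 1927 and 2775, and it lay 196 bp from the TSS of a small non-coding RNA gene. The methylation guide Me18S-C1968, in Swim, had one inside at +57 with a signal of 295, not matched in replicate 1 and 4162 bp from the next TSS. Psi28S-2566, in CG3902, had one at -206 with a signal of 314, and it was 1631 bp from the next TSS.

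U3 snoRNA acts in the cleavage of the ribosomal RNA precursor, and its genes, like snRNA genes, are independent units. None of the 3 U3 genes was bound, against 34.8% of all genes. Each had a pooled summit below the IDR set, U3:54Ab at rank 9981, U3:54Aa at rank 14828 and U3:9B at rank 17875, and each had a summit in both replicates. U3:54Ab was thus close to the last rank kept, 9342. U3:9B has the word TTCCCAA 59 bases upstream of its start, where snRNA genes have it, as Me18S-A1806, another isolated and unbound snoRNA gene, has it 66 bases upstream.

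By type of guide, 33 of 77 genes named as methylation guides (42.9%) and 30 of 106 named as pseudouridylation guides (28.3%) were bound. The share of all genes was 34.8%. The 95% Wilson intervals of both guide shares, 32.4% to 54.0% and 20.6% to 37.5%, overlap, and no test was made between them. scaRNA genes, whose products modify snRNAs in Cajal bodies, were bound in 2 of 16 cases, and the remaining snoRNA genes other than U3 in 24 of 67. These groups differ in their host genes, and their members share summits. By arm, the share ran from 7 of 33 on X to 21 of 56 on 3L, with 35 of 96 on 2R, 19 of 57 on 2L and 17 of 58 on 3R. The 1 member on arm 4 was not bound. Shares of all genes by arm were not computed, so no difference between arms is read from these counts.

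For members inside a coding gene, those near the host promoter were the ones most often bound. Of 62 members within 1 kb of a host TSS 40 (64.5%) were bound, and of 167 farther away 26 (15.6%). Finer, the counts were 16 of 24 up to 500 bp, 24 of 38 up to 1 kb, 13 of 69 up to 2 kb and 13 of 98 beyond. Members of non-coding hosts were bound in 16 of 20 cases within 1 kb and in 3 of 25 farther away. Their finer counts were 8 of 8, 8 of 12, 0 of 12 and 3 of 13, so the class beyond 2 kb was above the one before it. Part of this is built into the rule, since a window of 1 kb around a member near a host TSS takes in the host promoter. The nearest summit of the 66 bound members lay a median of 167 bp from a host TSS and 734 bp from the member. It was within 1 kb of a host TSS in 48 of 66, and nearer to that TSS than to the member in 43. For non-coding hosts both counts were 16 of 19.

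**Figure D3:**
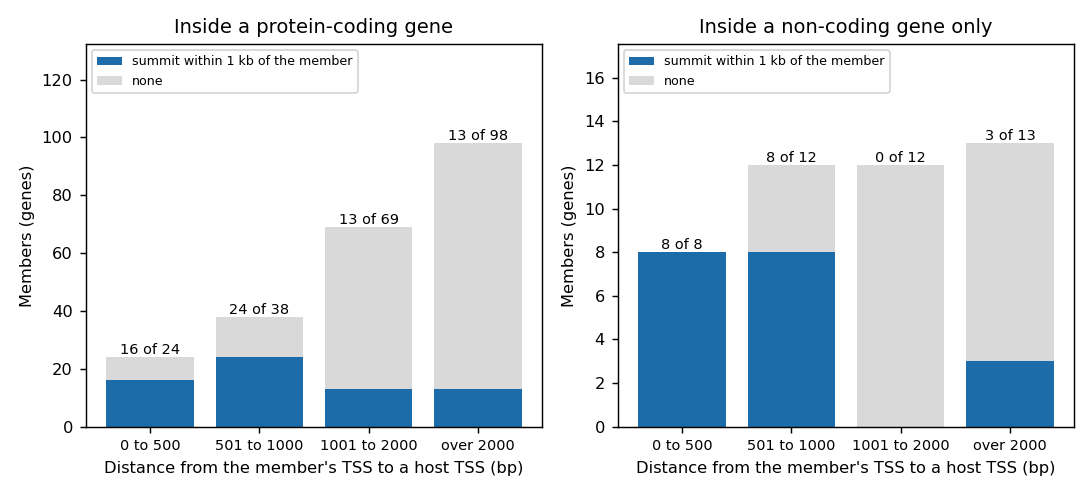
Members (number of genes, vertical axis) by distance from the member's TSS to the nearest TSS of the host gene (bp), for members inside a protein-coding gene and inside a non-coding gene only. Blue marks members with an IDR summit within 1 kb, 40 of 62 within 1 kb of a coding host's TSS and 26 of 167 beyond.

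Members within 1 kb of a host TSS were bound in 40 of 55 cases where a TSS of the coding host was bound and in 0 of 7 where none was. Farther away the counts were 24 of 121 and 2 of 46. The same summits gave the call of host and member, and near the host TSS their windows overlap. The split near the host TSS is therefore largely built into the rule, and members of 1 host can share a summit. The members were also set beside other non-coding genes by distance to any promoter. Of 90 members within 1 kb of any protein-coding TSS 59 (65.6%) were bound, and of 211 farther away 40 (19.0%). For other ncRNA and tRNA genes these shares were 38.7% and 13.0%.

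Of the 11 snoRNA genes with the strongest summits, the last 2 of them tied for the tenth place, all but Psi18S-996 had that summit near a host TSS. U49:66Da and U49:66Db, in introns of RpL14, share a summit with a signal of 1595 that is 28 bp from the RpL14 TSS. Their ranks were 747 and 465. In the non-coding host Uhg4, Psi28S-2949, Or-aca5 and Me28S-G3255a share one of 1323 that is 73 bp from its TSS. In RpL13A, Me28S-U2134a and Me28S-U2134b share one of 1279 that is 71 bp from its TSS. In RpS20, Psi18S-1295 and Psi28S-2562 share one of 1226, which is 167 bp from the RpS20 TSS and 166 bp from that of the neighbour CG17271. Psi18S-996 lies in Tudor-SN, which encodes a nuclease-fold protein of RNA granules, and its summit, with a signal of 1449 and ranks of 633 and 742, is in an intron 940 bp upstream of the member and 1487 bp from the host TSS.

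The coding hosts themselves were bound more often than their members. Of 101 coding hosts 74 (73.3%) were bound at a TSS by the same rule, against 39.3% of protein-coding genes. Hosts have a median of 2 annotated TSSs, which gives the rule more places to find a summit. Among hosts with 1 TSS 29 of 45 (64.4%) were bound, against 31.7% of all protein-coding genes with 1 TSS. Ribosomal protein genes made up 29 of the hosts, and 27 were bound, RpL36A and RpS6 being the others. Ribosomal protein genes that host no member were bound in 51 of 60 cases (85.0%). The other 72 hosts were bound in 47 cases (65.3%), or 17 of 32 of those with 1 TSS (53.1%).

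Ribosomal protein hosts had the summit closest to the start. The median distance was 41 bp over 27 bound hosts, with a range from 1 to 308 bp, and the median signal was 721. In the 47 other bound coding hosts these were 194 bp, with a range from 5 to 952 bp, and 535. The signals of these groups overlapped widely, from 249.6 to 1595 and from 246 to 2645.

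**Figure D4:**
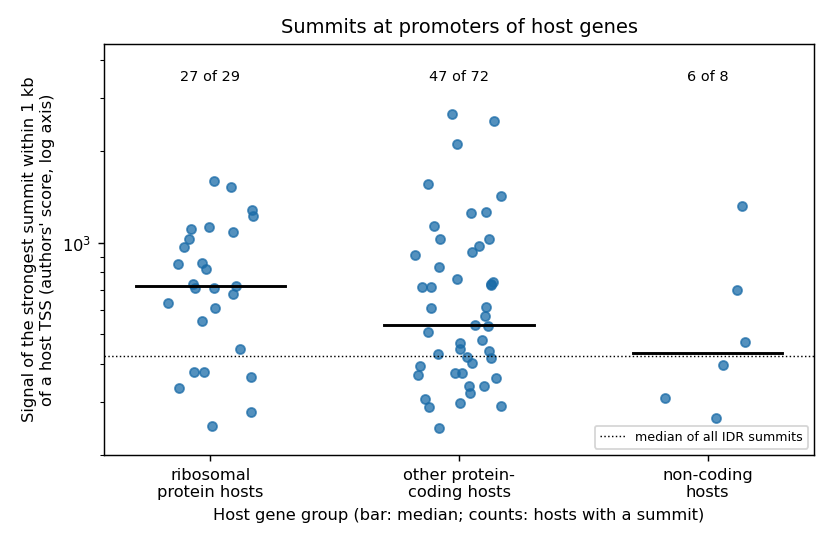
Signal of the strongest IDR summit within 1 kb of a TSS of each bound host gene (authors' score, logarithmic axis), for ribosomal protein hosts, other protein-coding hosts and non-coding hosts; each point is 1 host, the bar is the median and the dotted line is the median of all IDR summits, 424. Medians are 721, 535 and 435, and points are spread sideways only to be seen.

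The coding hosts with the highest signal were drn at 2645 and Msp300, a nesprin that links nuclei to the cytoskeleton, at 2518. They were followed by CG1142 at 2104, RpL14 at 1595, the oligosaccharyltransferase gene Stt3A at 1556 and RpL23A at 1527. Also among the highest were RpL13A at 1279, CG12316 at 1262 and the Mediator subunit gene skd at 1256. A strong host summit was not always within 1 kb of a member. In drn, Msp300, RpL23A, CG12316 and skd no member was bound, since each lay over 1 kb from the summit, while the members of CG1142, RpL14 and RpL13A were all bound.

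Hosts that carry many snoRNA genes differed in which summits their bound members use. Arpc2, a subunit gene of the Arp2/3 actin nucleator, holds 17 members, and the 4 that were bound, Psi18S-525a, Psi18S-640a, Psi18S-525b and Psi18S-525c, all use 1 summit 759 bp inside the gene with a signal of 973. RpS5a had a promoter signal of 822, but its 2 bound members of 14, Psi28S-1192c and Psi28S-1192d, use a summit of 336 that is 276 bp from the TSS of mei-218 and 3940 bp from that of RpS5a. Sf3b3, of the U2 snRNP, had 2 of 9 bound by its promoter summit of 246. In RpS7 3 of 7 were bound, Psi28S-2626 by the promoter summit of 552 and Psi28S-2149 and Psi18S-1377e by a summit of 261 that is 2543 bp from the RpS7 TSS. The hnRNP gene Hrb98DE, with a promoter signal of 417, had 0 of 7 bound, and kra, with 609, had 0 of 8. RpS16 was bound in all 5 of its members, 3 by summits at its own start and 2 by a summit 39 bp from the TSS of Vps20.

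The remaining hosts of at least 4 members were RpL28 with 3 of 5 bound, RpL3 with 2 of 4, RpL17 with 1 of 4, RpL23A with 0 of 4, lola with 0 of 4 and sick with 1 of 5. In 3 large hosts no TSS was bound. dom, an ATPase gene of chromatin remodelling, holds 15 members and CG10576 holds 5, none of them bound. Nop60B encodes the pseudouridine synthase of H/ACA snoRNPs and holds 7 members, of which Or-CD9a and Or-CD9b were bound by a summit 98 bp from the TSS of the neighbour ocm. In egr, a ligand gene of the tumour necrosis factor family, 4 members on the opposite strand were bound by intronic summits with signals of 321 and 365, the latter not matched in replicate 2.

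Uhg genes are hosts whose spliced transcripts encode no known protein and whose product is their intronic snoRNAs. The annotation holds 7 of them, and 6 had an IDR summit within 1 kb of their TSS. Uhg7 had none, and its 4 members, which also lie in RpL23A and are counted there, were not bound. The other 2 non-coding hosts, each with 1 member, had none either. The strongest signal was 1323 at Uhg4, 698 at Uhg2, 473 at Uhg8, 397 at Uhg5, 308 at Uhg1 and 265 at Uhg3. These summits lay 73 bp upstream of the start at Uhg4, 78 bp at Uhg2, 77 bp at Uhg5, 43 bp at Uhg3, 314 bp at Uhg8 and 507 bp at Uhg1. Replicate ranks were close at Uhg4, with 937 and 703, at Uhg2, with 2202 and 2559, and at Uhg5, with 5305 and 5129. They were apart at Uhg1, with 12579 and 4229, and at Uhg3, with 11893 and 6275, and the Uhg8 summit was matched in replicate 2 only. At Uhg1 and Uhg8 the strongest summit was not the one nearest the start, and it lay closer to a neighbour, that of Uhg1 to rdgBbeta, at 228 bp from its TSS, and that of Uhg8 to CG5199. The nearer Uhg1 summit, 125 bp upstream, had a signal of 225 and ranks of 10412 and 8116. The nearer Uhg8 summit, 108 bp upstream, had a signal of 323 and close ranks of 6455 and 6797. Uhg2 had a further summit 282 bp upstream, with a signal of 402, that was 2 bp from the TSS of Bka and not matched in replicate 2.

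Bound were 3 of 6 members of Uhg4, 3 of 4 of Uhg2, 3 of 3 of Uhg3, 1 of 3 of Uhg8, 6 of 11 of Uhg5 and 3 of 16 of Uhg1. Uhg4 also contains Or-CD2, which is counted under the coding host Ctu1 on the opposite strand and was not bound. In Uhg5 the first 3 bound members lie 181 to 729 bp from the start and use its promoter summit. The other 3, Me28S-G2703b, Me28S-G2703c and Or-CD4, lie over 2 kb from it and use a second summit with a signal of 532 that is 3042 bp from the Uhg5 TSS.

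Genes whose proteins make or bind these RNAs were taken as a list chosen for this description. Of 40 names 37 were found in the annotation, and 21 of these (56.8%) had a promoter summit, against 39.3% of protein-coding genes. Brf, a polymerase III initiation factor, had the highest signal at 2331, with ranks of 639 and 177. The Integrator complex, which cleaves snRNA 3′ ends, had summits at IntS6 with 1270, IntS11 with 1109, IntS4 with 775 and IntS8 with 379.8, and none at IntS1. Of the snoRNP proteins, nop5 had 726, hoip 673, the methyltransferase Fib 469 and Nop56 331, while the H/ACA genes Nop60B and NHP2 had none. Of the Sm ring genes found, SmB, SmD1, SmD2 and SmD3 were bound, with signals from 315 to 531, and SmE and SmF were not.

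Of the complex that recognises the proximal sequence element, Pbp49 had a summit with a signal of 324 that was not matched in either replicate, and Pbp45 and Pbp95 had none. The assembly and Cajal body genes Smn, coil and Nopp140 had signals of 487, 485 and 559. The export factors Phax and Ars2 had 284 and 305, Sym 462 and U2A 226. No promoter summit was found at snRNP-U1-70K, snf, Prp8, Tbp, Trf, Lsm10, Lsm11, nonA or Cbp80.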

How the data were processed

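Sug-eGFP ChIP-seq of whole Drosophila embryos (1 group, 2 biological replicates) was analysed from deposited peak lists on dm6. Per the deposited text files, the authors called peaks on each replicate's alignments with a control, and derived the IDR set from both replicate lists and a pooled list. The names of the aligner and peak caller were not given in the sources used here. The control itself was not analysed here. The signal deposited by the authors is a score on its own list's scale. It was used to describe and rank summits within a list. The −log10 q deposited by the authors is constant in the IDR set and was not used. All 9342 IDR rows are rows of the pooled list. The replicate and pooled lists hold 30000 rows each, so they were cut off by length. In 2 IDR rows the summit lay past its interval and was set to the interval's end. Without read counts the depth is unknown.

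Genes, exons and TSSs came from Ensembl release 115 of the same assembly, and hosts are genes that contain a member on either strand, protein-coding ones first. A gene was bound if an IDR summit lay within 1 kb of any of its TSSs. For each gene the strongest such summit is given unless the nearest is named, and replicate ranks are those of the highest summit within 100 bp. Named are snRNA genes by class, U3 and 7SK genes, the 10 snoRNA genes and 10 coding hosts with the strongest summit, hosts of 4 or more members and the listed pathway genes. Of these, 1 host is not reported here. The isolated snoRNA genes, Me18S-A1806, 3 guides with a summit near their own start and the Uhg genes with fewer members were added to these after their values were seen.

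Members and lists were chosen with earlier results of these data known. The distance classes, the comparisons by promoter, by host TSS and by number of TSSs, the words around summits and the word recurrence were chosen after the data were seen. No chance test was made. The assignment of summits to genes was tested on simulated positions. Alternatives were other windows, any base of the gene, the higher-scoring IDR summits, 1 summit per interval, same-strand hosts only, and the highest 9342 summits of each replicate alone. Python 3.11.15 with numpy 2.4.6 and matplotlib 3.10.9 was used.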

Additional observations from a re-analysis of the deposited data

How the results depend on the processing

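Counts within a window follow its width. With 500 bp 37 members were bound, 17 of them in coding hosts, and with 2 kb 173 were, 126 of them in coding hosts. The higher-scoring part of the summits, above their median, left 58 members, 39 of them in coding hosts. Protein-coding genes at these settings were bound in 35.1%, 45.3% and 24.3% of cases. So the share of members lay below that of protein-coding genes at 500 bp (12.3%), at 1 kb and with the higher-scoring part (19.3%), and above it at 2 kb (57.5%). The counts of isolated members, from 10 to 20, and of coding hosts, from 52 to 79, stayed within 1.5 times the reported ones, the 20 being of 43 members when only same-strand genes counted as hosts. From the highest summits of 1 replicate alone, 94 to 95 members, 63 to 65 members in coding hosts, 13 to 14 isolated members and 74 to 78 hosts were bound. Without replicate 1, 89 of the 99 bound members were kept and 6 gained, and without replicate 2, 86 were kept and 8 gained. The median signal was not computed from replicate lists, which have their own scale. Of 73 recomputed values 54 moved little and 19 moved. Of these, 18 came with another window or summit set, and 1, the median distance of bound members to the nearest summit, went from 673 to 623 bp without replicate 2; the cause was not tested. No paired analysis was possible because there is only 1 group. Depth is unknown, so a member without a summit is one with no summit called, not one shown to be free of binding.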
